A study of Mus musculus with 12 samples.

Results

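Nat1, listed by RefSeq under the symbol Eif4g2 with Nat1 and DAP-5 among its synonyms, encodes a relative of the scaffold protein eIF4G that carries ribosomes to messenger RNA but does not bind the cap-binding protein eIF4E. The comparison described here is that of Nat1-null with wild-type mouse embryonic stem cells in medium with LIF, and its members are the 3 arrays labelled Nat1-null and LIF and the 3 labelled wild-type and LIF, 6 of the 12 arrays of the series. The other 6 arrays, 3 of each genotype, come from cells in 2i+LIF and are used only to ask whether a difference in LIF was also seen there. All cells were an embryonic stem cell line on gelatin-coated plates in standard stem cell medium, and total RNA was labelled with Cy3 and hybridised to single-colour Agilent arrays, each RNA sample to its own array. The labels leave out what was deleted from the gene, how many clones the Nat1-null arrays stand for, or whether the arrays of a group came from separate cultures. P-values therefore measure the spread between these RNA samples, which may be technical.

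Mouse embryonic stem cells are kept self-renewing by LIF, a cytokine that acts through its receptor and JAK kinases on the transcription factor STAT3. In LIF with serum the cells form a mixed population in which the naive factors (Nanog, Esrrb, Klf4, Tfcp2l1) fluctuate and the FGF and ERK pathway pushes some cells towards the formative and primed states of the later epiblast, marked by Fgf5, Pou3f1 and Dnmt3b. The 2i inhibitors block the ERK pathway at MEK and the kinase GSK3, and hold the cells in the naive state. Nat1 is known to be needed for differentiation of these cells, and acts at translation, so a transcript array reads the consequences on RNA and not the translated targets.

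The 3 wild-type LIF arrays lay on slide 1, the wild-type 2i+LIF arrays on slide 2 and all Nat1-null arrays on slide 3, so that in LIF genotype and slide cannot be told apart. Between 52.5% and 66.3% of the gene spots of a LIF array were well above background, fewest on Nat1-null replicate 3, whose negative control spots also read lowest. The 3 wild-type arrays were close to each other, with a median SD over genes of 0.0711 on the log2 scale, against 0.156 among the Nat1-null arrays. Nat1-null replicate 2 stood apart. Of 13110 genes with a symbol and bright on all 6 LIF arrays, 330 lay at least 2-fold from the mean of the other pair on this array. The counts were 89 and 108 for Nat1-null replicates 1 and 3 and 21 to 23 for a wild-type array. Without Nat1-null replicate 2, 16562 genes in place of 16345 passed the test described next. All 8 fixed stem cell markers were above background on all 6 arrays and read higher in Nat1-null cells.

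Levels below are log2 processed signals with the 75th percentile of each array set to 0, and differences are Nat1-null minus wild type, so that 1 is a 2-fold rise. A gene is called where limma's moderated test, adjusted by the Benjamini-Hochberg method over all 24457 genes tested, gives a p under 0.05, and ± is the standard error from that fit. Eif4g2, the targeted gene, lay at 4.54, 4.49 and 4.44 in wild-type cells and 1.32, 1.26 and 1.25 in Nat1-null cells. The groups were far apart and the Nat1-null arrays still read above background, at a difference of -3.21 ± 0.07 (adjusted p = 7.00e-10). The probe's place relative to the deleted part is not given in the sources used here, so what the remaining signal stands for was not tested. The difference was -2.89 in 2i+LIF.

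Eif4g2's relatives did not move together. Eif4g1, the scaffold of cap-dependent initiation, read 4.85, 5.05 and 4.98 on the wild-type arrays and 5.08, 4.68 and 5.04 on the Nat1-null arrays, and these overlapped (-0.03 ± 0.10, adjusted p = 0.827). Eif4g3, another full-length scaffold, fell by 1.27. Eif4a2, an RNA helicase that works with the scaffold, rose from 5.50, 5.55 and 5.58 on the wild-type arrays to 7.09, 7.12 and 7.14 on the Nat1-null arrays, a difference of 1.58 ± 0.05 (adjusted p = 8.17e-09). That rise was larger in LIF than in 2i+LIF, where the difference was 0.14 (test of the difference between media, limma adjusted p = 5.07e-07). Eif4ebp1, a repressor of eIF4E, fell by 0.81. Of 19 genes of this cap-binding group 8 rose and 9 fell, where over all genes 33.9% rose and 32.9% fell. Among 32 other initiation factors 3 rose and 16 fell with a median of -0.23, led by the elongation and termination factor Eif5a at -1.11, the eIF3 subunit Eif3j1 at -0.85 and the eIF2B subunit Eif2b3 at -0.82. The median of all genes was 0.02, and the list's median was -0.38 without scaling between arrays and -0.13 without Nat1-null replicate 2.

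Over the whole array 16345 of 24457 genes were called (66.8%), 8293 higher (33.9%) and 8052 lower (32.9%), so a called gene is the rule in this comparison. The counts of list members that follow are to be read beside these shares. At 2-fold or more the calls were 6359 (26.0%), with 2419 higher (9.89%) and 3940 lower (16.1%), and in 17801 genes (72.8%) the 3 arrays of one genotype did not overlap those of the other. Large falls outnumbered large rises: 2092 genes fell by at least 4-fold and 576 rose by as much, and at 16-fold the counts were 465 and 47. The excess of falls was not seen among the 18993 genes above background on all 12 arrays, a filter that takes out genes that fell to background: there 2083 rose and 1648 fell by 2-fold. In 1033 genes (4.22%) that fell, no Nat1-null array was above background, and in 110 (0.450%) that rose, no wild-type array was. For these the text gives a lower bound of the fold, written as "at least", because the dim group's level is not measured. Several genes given below with a difference were measured on only part of the Nat1-null arrays. Their difference rests in part on levels not above background. Measured on 1 array were Dusp5, Fgf13, Hand1, Peg3, Stra6 and Zfy1. Measured on 2 were Dab2, Dll1, Fas, Gata3, H19, Hoxb2, Hspa1a, Krt7, Krt20, Lats2, Psmb8, Sox11 and Tgfb2. Without scaling between arrays 6238 of the called genes were higher and 9635 lower, and the median of all genes moved from 0.02 to -0.14. Small differences are therefore relative to the array as a whole. Large differences thinned out among the brightest genes: in the brightest of 4 equal classes of genes ordered by wild-type level 4.86% rose and 7.12% fell by 2-fold, against 12.4% and 20.2% in the dimmest class.

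**Figure D1:**
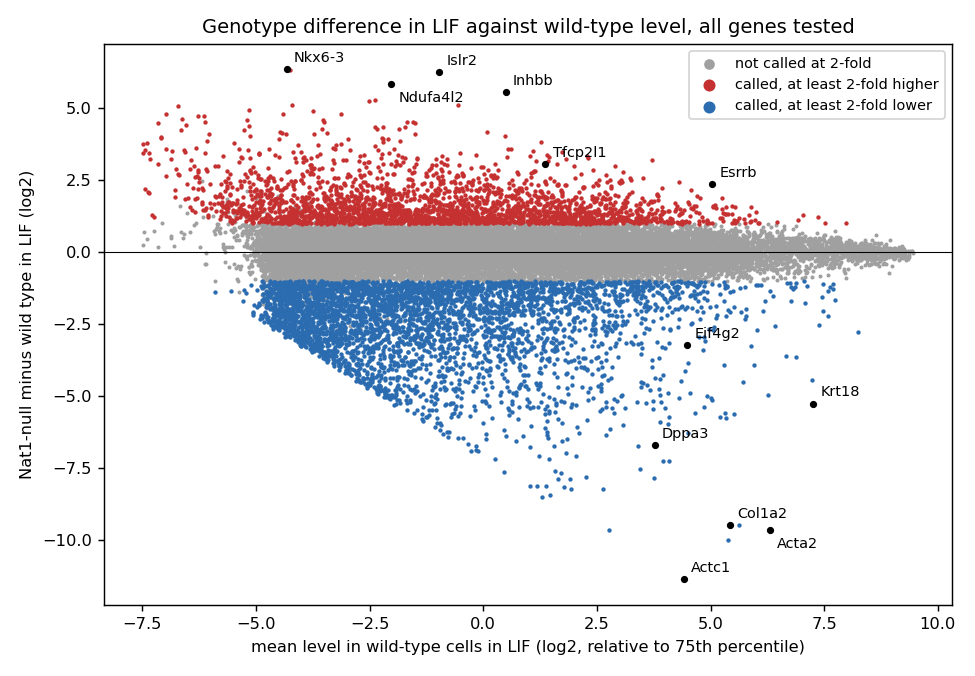
Difference between Nat1-null and wild-type cells in LIF (vertical axis, log2) against the mean level in wild-type cells in LIF (horizontal axis, log2 relative to the 75th percentile of the array), a point per gene. Red and blue points are called with at least 2-fold; blue points (3940) outnumber red (2419), and the slanted lower edge at the left is where the fall ends at background.

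The naive pluripotency genes rose as a group. Of 20 members 17 rose and 2 fell, 14 rises reaching 2-fold, and the list's median difference was 1.48. Klf4, a STAT3-dependent factor of the naive network, lay at 2.84, 2.99 and 2.90 on the wild-type arrays and 5.98, 5.67 and 6.06 on the Nat1-null arrays. Tfcp2l1, another factor downstream of STAT3, lay at 1.34, 1.44 and 1.32 in wild-type cells and 4.36, 4.46 and 4.44 in Nat1-null cells. In both genes every Nat1-null array was above every wild-type array, and the differences were 3.00 ± 0.12 (adjusted p = 2.07e-08) and 3.05 ± 0.08 (adjusted p = 1.91e-09). Tbx3, a T-box factor of the same network, rose by 3.27, Jam2, an adhesion molecule, by 2.53, Prdm14, a repressor of FGF signalling and of DNA methylation, by 2.39, Esrrb, an orphan nuclear receptor, by 2.36 and Klf5 by 2.35. Smaller rises were found for Nanog (1.40 ± 0.06), Klf2 (0.87 ± 0.15) and Zfp42, the gene of the stem cell marker Rex1 (0.57 ± 0.13).

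Dppa3 (Stella), which protects DNA methylation marks in the early embryo, went the other way. It read 3.76, 3.78 and 3.78 on the wild-type arrays and -2.83, -2.89 and -2.999 on the Nat1-null arrays. The difference of -6.68 (adjusted p = 1.63e-10) was among the largest of all genes above background on the 6 arrays. In 2i+LIF the difference was 0.21, and the test of the difference between media gave -6.90 ± 0.14 (limma adjusted p = 6.80e-09).

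The core factors rose less evenly. Sox2 read 2.72, 2.77 and 2.69 in wild-type cells and 4.83, 4.61 and 4.79 in Nat1-null cells, a difference of 2.01 ± 0.07 with no overlap. Pou5f1 (Oct4), its partner, rose by 1.44 and Tdgf1, the Nodal co-receptor Cripto, by 2.68. Lin28a, which blocks the maturation of let-7, fell by 1.68. In this list of 20 genes 9 rose and 6 fell (7 and 7 without scaling).

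The genes of the formative and primed epiblast mostly fell: 14 of 20 fell, 12 of them by 2-fold, and 3 rose (median -1.57). Pou3f1 (Oct6), a POU factor that marks the exit from the naive state, lay at 2.55, 2.65 and 2.65 on the wild-type arrays and -0.36, -0.62 and -0.68 on the Nat1-null arrays, a difference of -3.17 ± 0.10. Dnmt3b, the de novo DNA methyltransferase of the epiblast, lay at 5.79, 5.75 and 5.79 in wild-type cells and 3.69, 3.28 and 3.74 in Nat1-null cells, a difference of -2.20 ± 0.14. Neither gene's groups overlapped. Cdh2 (N-cadherin) fell by 5.51, and the SOX factors Sox11 (-4.75) and Sox3 (-4.01) fell too. Fgf5, a hallmark of the epiblast, fell by 2.27. Otx2, which directs enhancer choice at the same transition, did not pass the test (0.04 ± 0.07, adjusted p = 0.638), and Foxd3, a forkhead factor, rose by 2.23, with 0.39 on Nat1-null replicate 2 against 1.81 and 1.95 on the other pair.

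**Figure D2:**
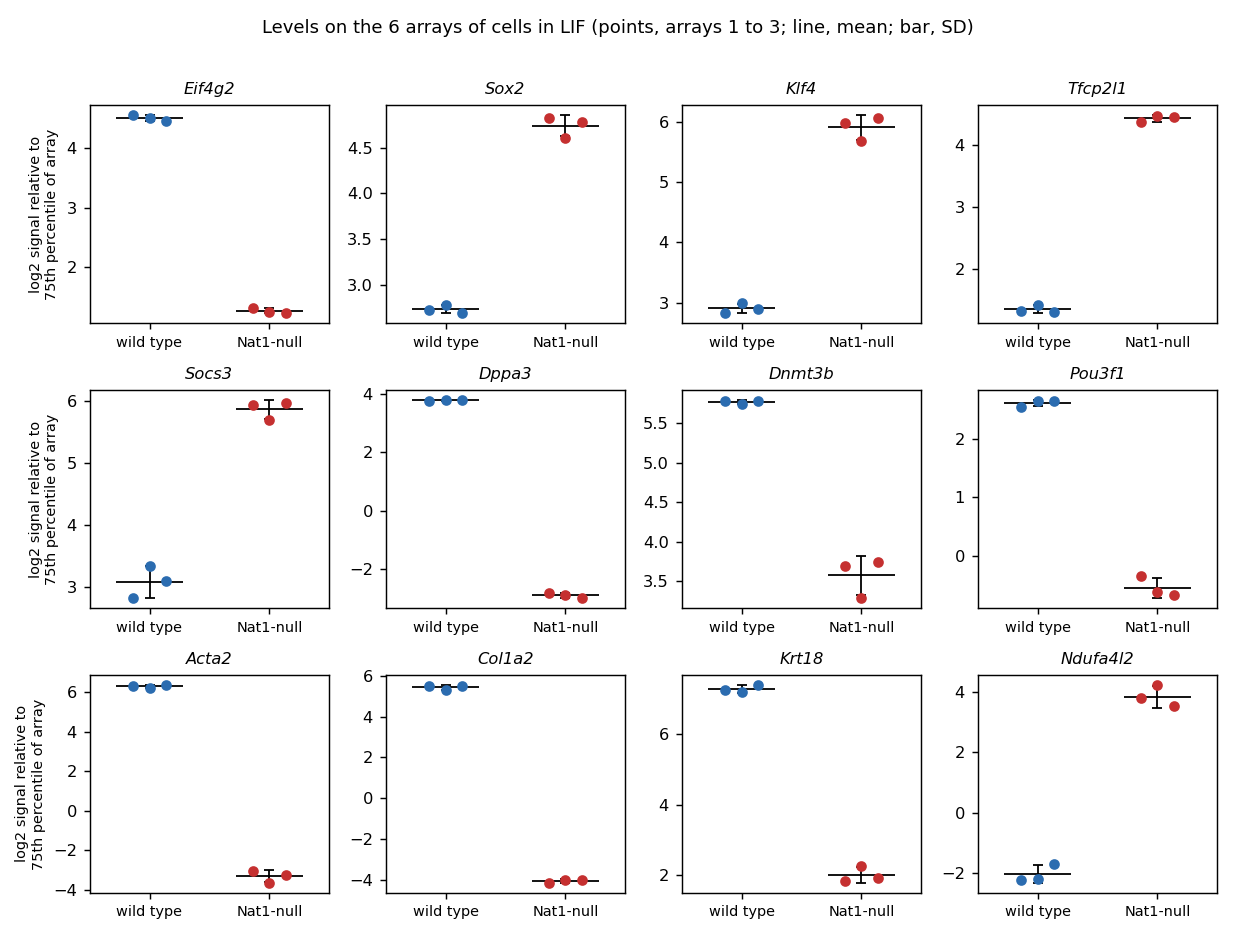
Level of 12 genes on each of the 6 arrays of cells in LIF (vertical axes, levels in log2 with the 75th percentile of each array at 0; scales differ between panels). Points are arrays 1 to 3, the line is the mean and the bar the SD (n = 3); in no panel do wild-type and Nat1-null arrays overlap, and Sox2, Klf4, Tfcp2l1, Socs3 and Ndufa4l2 are higher in Nat1-null cells.

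LIF signalling genes rose on both sides of the pathway. Lifr, the receptor's own subunit, rose by 2.33 and Stat3 by 1.04. Socs3, the feedback inhibitor that STAT3 itself induces, lay at 2.82, 3.33 and 3.09 on the wild-type arrays and 5.94, 5.70 and 5.97 on the Nat1-null arrays. All Nat1-null arrays were above all wild-type arrays (2.79 ± 0.12, adjusted p = 3.33e-08). Osmr, the receptor of the related cytokine oncostatin M, was at least 2.61-fold lower. Of 23 genes of this list 17 rose and 3 fell, with a median of 0.76; it shares Klf4, Tfcp2l1 and Gbx2 with the naive list.

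Readouts of the ERK pathway were called in both directions, as genes were over the whole array. Of 18 feedback inhibitors and ETS factors 9 rose and 8 fell, and of 21 immediate early genes 9 rose and 9 fell. Over all genes 33.9% rose and 32.9% fell. The ETS factor Etv4, a target of FGF signalling, rose by 2.40, the ERK pathway inhibitor Spry4 by 2.32 and the ERK phosphatase Dusp6 by 0.50. By contrast the phosphatases Dusp4 and Dusp5 fell, at -2.92 and -2.38. Egr1, the immediate early zinc finger factor, lay at 1.10, 1.10 and 0.97 in wild-type cells and -2.20, -2.003 and -2.08 in Nat1-null cells, without overlap (-3.15 ± 0.08), while its relative Egr4 rose by 3.04. The AP-1 subunit Fosl2 fell by 3.15.

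Upstream, 14 of 30 genes of the Ras and MAPK cascade rose and 7 fell (10 and 9 without scaling), mostly by less than 2-fold. Grb2, the adaptor between receptors and Ras, rose by 0.81 and Map3k1 by 1.24. Map3k3, a MAP3 kinase, rose by 0.21 ± 0.06 (adjusted p = 0.0122), a call that was lost without scaling between arrays (0.05, adjusted p = 0.543) and with the 6 LIF arrays alone (0.20, adjusted p = 0.0552). The receptor Fgfr3 rose by 2.32 and Fgfr2 fell by 1.38. Among 14 FGF ligands 5 rose and 7 fell; Fgf4, the ligand that stem cells make themselves, read 4.49, 4.63 and 4.62 on the wild-type arrays and 6.81, 6.63 and 6.74 on the Nat1-null arrays, a rise of 2.15 ± 0.07, and Fgf13, an intracellular member, fell by 3.08.

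The contractile and cytoskeletal genes fell together. Of 26 genes of smooth muscle contraction and targets of serum response factor (SRF) 21 fell, 18 by 2-fold or more, and Srf itself was the single call in the other direction, at 0.22; the median was -3.07, or -2.74 with unmeasured members at their bound. Acta2, smooth muscle actin, lay at 6.33, 6.22 and 6.35 in wild-type cells and -3.04, -3.66 and -3.27 in Nat1-null cells, a difference of -9.62 (adjusted p = 8.54e-10). Actc1, cardiac actin, lay at 4.47, 4.31 and 4.47 on the wild-type arrays and was above background on no Nat1-null array, so it was at least 672-fold lower. Acta1, skeletal actin, fell by 7.24, and so did the actin-binding calponin Cnn1 (-6.28) and the myosin light chain Myl9 (-5.57). Actb, the cytoplasmic actin of all cells, fell by 0.40. Of the 2 probes of Srf the other was at -0.09 and not called. Srf lost its call with quantile normalization (0.13, adjusted p = 0.0782) and changed sign with normexp correction (-0.04).

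SRF binds the CArG box. Of 23 list members with a promoter in the RefSeq table, 8 had the motif within 250 bases upstream of the start, on either strand. The motif was in 1.467% of all 32851 listed promoters. Members here and below count if any of their listed promoters has the motif, whereas the share is of promoters. The list was chosen to hold SRF targets, so a higher share among its members was fixed by that choice. Of these 8 genes Acta1, Actc1, Cnn2, Fhl2, Filip1l, Myl9 and Vcl fell and Srf rose. The 250 bases before the start of the 3 with the largest falls among them follow (RefSeq, GRCm38.p6, the gene's strand, CArG box in capitals), for Actc1 at chr2:114052876-114053125 on the minus strand, Acta1 at chr8:123894776-123895025 on the minus strand and Myl9 at chr2:156775214-156775463 on the plus strand; Cnn2, Filip1l, Myl9, Srf and Vcl were chosen after their values were seen.
Actc1: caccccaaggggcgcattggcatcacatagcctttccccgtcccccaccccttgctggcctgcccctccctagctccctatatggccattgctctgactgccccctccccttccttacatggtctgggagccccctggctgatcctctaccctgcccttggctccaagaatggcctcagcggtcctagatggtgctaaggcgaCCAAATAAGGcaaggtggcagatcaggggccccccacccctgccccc
Acta1: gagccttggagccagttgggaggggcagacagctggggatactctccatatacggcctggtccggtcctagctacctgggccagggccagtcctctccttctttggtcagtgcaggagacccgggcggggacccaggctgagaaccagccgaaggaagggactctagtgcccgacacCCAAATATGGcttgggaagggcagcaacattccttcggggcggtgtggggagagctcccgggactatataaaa
Myl9: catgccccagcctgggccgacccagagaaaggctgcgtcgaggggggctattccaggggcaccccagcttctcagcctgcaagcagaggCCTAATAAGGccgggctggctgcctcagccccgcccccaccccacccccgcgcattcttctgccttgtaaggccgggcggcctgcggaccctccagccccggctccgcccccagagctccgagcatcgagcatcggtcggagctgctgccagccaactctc
Counted from the start, the boxes begin at -47, -73 and -161. Over all 196 tested genes with a CArG box in this window, 26.0% fell by 2-fold and 9.18% rose, against 18.2% and 10.3% of the 12238 tested genes with a listed promoter. Calls of any size did not set them apart: 37.2% fell and 32.1% rose, against 37.4% and 34.97%. The 196 genes include the 8 list members above, so they are not separate from the list. A match describes the letters only, and no binding was measured.

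In the list of YAP and TEAD, transcriptional regulators under the Hippo pathway, and their targets most genes fell too. Of 21 genes 15 fell and 5 rose (median -1.10). These counts are not of targets alone, because the list also holds Yap1, Wwtr1, Tead1, Tead2, Tead3 and Tead4 themselves. Yap1 (0.63) and Wwtr1 (0.31) were among those that rose and Tead3 (-2.02) among those that fell. Ccn2 (Ctgf), a secreted matrix protein, lay at 4.83, 4.87 and 4.84 on the wild-type arrays and -0.84, 0.01 and -0.68 on the Nat1-null arrays, and Nat1-null replicate 2 was the highest of its group. The difference was -5.35. Ccn1 (Cyr61) fell by 4.72, and lower levels were also found for the kinase Lats2 (-4.69) and the scaffold Amot (-4.68). Ankrd1, a muscle ankyrin repeat protein, was above background on no Nat1-null array and at least 77.1-fold lower. The list was chosen around these factors, so a higher share of their motif among its members was fixed by that choice. TEAD factors bind CATTCC, which lay in the 250 bases upstream of 9 of the 15 members with a listed promoter and of 12.642% of all promoters (either strand). Ccn1 (chr3:145649986-145650235, minus strand) and Ankrd1 (chr19:36119845-36120094, minus strand) are shown with these letters, or their reverse complement, in capitals.
Ccn1: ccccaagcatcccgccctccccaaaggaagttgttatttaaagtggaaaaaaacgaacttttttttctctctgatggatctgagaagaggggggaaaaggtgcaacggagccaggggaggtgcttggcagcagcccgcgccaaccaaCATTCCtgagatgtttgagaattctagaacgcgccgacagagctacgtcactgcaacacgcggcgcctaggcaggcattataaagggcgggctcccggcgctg
Ankrd1: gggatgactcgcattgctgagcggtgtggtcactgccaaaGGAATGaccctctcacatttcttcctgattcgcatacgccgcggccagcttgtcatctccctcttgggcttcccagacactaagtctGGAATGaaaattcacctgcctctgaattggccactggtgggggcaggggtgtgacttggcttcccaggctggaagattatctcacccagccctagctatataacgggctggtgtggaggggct
The Ankrd1 window holds the letters at -210 and -123 and that of Ccn1 at -103. Of all 1608 tested genes with these letters 22.2% fell and 10.6% rose by 2-fold, and 39.1% fell and 34.6% rose at any size. The 1608 genes include the 9 list members.

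Matrix genes and keratins fell as well. Of 34 collagens and collagen-processing genes 21 fell and 4 rose. Col1a2, a chain of fibrillar collagen I, read 5.51, 5.30 and 5.50 in wild-type cells and -4.14, -4.01 and -3.98 in Nat1-null cells, a difference of -9.48 (adjusted p = 3.50e-11), and its partner chain Col1a1 fell by 7.25. The proteoglycan decorin (Dcn) was at least 63.7-fold lower and thrombospondin 1 (Thbs1) at least 194-fold. Col18a1, a basement membrane collagen, did not pass on its brightest probe (-0.22 ± 0.12, adjusted p = 0.138). Its other probe was called lower (-0.85), and with the mean of both the gene was lower (-0.54, adjusted p = 0.00151), as it was without scaling (-0.37), with quantile normalization (-0.32) and with normexp correction (-0.28). Of 43 integrins, laminins and other matrix proteins 25 fell and 12 rose (median -0.79); of the 29 above background on all 12 arrays 12 fell and 12 rose (median -0.18). Of 8 keratins of simple epithelia 6 fell: Krt18 from 7.24, 7.17 and 7.37 on the wild-type arrays to 1.83, 2.25 and 1.94 on the Nat1-null arrays, a difference of -5.25 ± 0.10, its partner Krt8 with -4.95, Krt20 with -5.18, Krt7 with -3.86 and Krt19 with -3.73. Replicate 2 was the Nat1-null array nearest wild type for Krt18.

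Fibroblasts and feeder cells express many of the same contractile and collagen genes. The summed level of the 11 fibroblast markers tested was 8.13 to 8.24 on the wild-type arrays and 2.89 to 3.11 on the Nat1-null arrays (log2). Signals were summed before the logarithm, so the brightest markers, Tagln and Acta2 of the contractile list, make up most of the wild-type sum. Tagln read 7.22 to 7.25 on the wild-type arrays and 2.62 to 2.94 on the Nat1-null arrays, where it made up most of the sum. Of the 11 markers, 10 fell, the smallest falls being those of Twist1 (-0.40) and Thy1 (-1.27). Dcn and Postn were above background on no Nat1-null array, and Pdgfrb, at -0.10, was not called. The labels name gelatin-coated plates and no feeder cells. In RNA of whole cultures fewer cells of a type and less RNA per cell cannot be told apart, and the part of fibroblasts in the falls of contractile, collagen and matrix genes was not tested.

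Ligands of the TGF-beta family moved in opposite directions. Inhbb, the activin beta B subunit, read 0.54, 0.47 and 0.46 in wild-type cells and 6.19, 5.74 and 6.21 in Nat1-null cells, one of the largest rises among genes above background on all 6 arrays (5.56 ± 0.16, adjusted p = 2.51e-09). Tgfb2 fell by 5.80, and Inhba, the other activin subunit, was at least 4.8-fold lower. In this list of 29 genes 10 rose and 16 fell. Bmp4 rose by 2.09, and of the 21 BMP and Id genes 4 rose and 11 fell. Among 17 Wnt and TCF genes 5 rose and 7 fell (5 and 4 of the 14 above background on all 12 arrays); Tcf7l1, the repressor that 2i relieves, rose by 1.76, and Nkd1, an inhibitor that Wnt signalling induces, fell by 2.17.

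Notch genes mostly fell, 10 of 16 against 2 that rose. The ligand Dll1 fell by 3.97 and the target Hes5 fell by 2.56, while the receptor Notch4 and the repressor Hes1 rose by 3.35 and 2.42. Of 13 Hedgehog genes 7 rose and 4 fell. Gli2, the pathway's main activator, lay at -2.01, -1.91 and -1.86 on the wild-type arrays and 1.31, 1.13 and 1.35 on the Nat1-null arrays, a rise of 3.19 ± 0.08; Gli1, its target, rose by 1.93 and Gli3, mainly a repressor, fell by 2.12. The retinoic acid genes fell in 13 of 18 cases and rose in 3 (median -1.65). Stra6, a receptor for the retinol carrier, fell by 4.75, and the cytoplasmic carriers Crabp1 (-4.68) and Crabp2 (-4.50) fell as well.

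The calls of the Hox genes differed by their place in the clusters, but few of these genes were above background on all arrays. Of 20 genes of paralog groups 1 to 8, 14 fell by at least 2-fold and 1 rose, whereas of 13 genes of groups 9 to 13, 9 rose, 8 of them by 2-fold, and 1 fell. Hoxb2, a hindbrain gene, lay at 1.16, 1.16 and 1.32 in wild-type cells and -4.32, -3.56 and -4.62 in Nat1-null cells, with a difference of -5.38; Hoxb1 was at least 7.07-fold lower and Hoxa2 fell by 2.58. At the other end Hoxc13 lay at -3.29, -3.32 and -3.32 on the wild-type arrays and 0.26, 0.38 and 0.26 on the Nat1-null arrays, a rise of 3.61 ± 0.06 (adjusted p = 1.63e-10), and Hoxb13 rose by 3.28. Hoxa10 and Hoxa11 were above background on no wild-type LIF array and at least 5.77-fold and 4.28-fold higher. The posterior genes were dim: 6 of the 13 were measured on no wild-type LIF array, and with these at their bound the median of 2.16 became 1.20. Such genes were tested only because another group was above background, so they could hardly be called lower. Of the 4 posterior genes above background on all 12 arrays 3 rose and 1 fell. Of the 8 such genes of groups 1 to 8, 1 rose and 5 fell. In wild-type 2i+LIF the posterior genes read higher still, since 10 of the 13 were lower in Nat1-null LIF than there and none was higher.

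Trophoblast, endoderm and neural genes fell more often than they rose, the neural ones only where genes near background are counted. In the trophoblast list 11 of 17 fell and 4 rose, with Gata3 at -4.96 and Hand1 at -4.74. Of 20 genes of primitive and visceral endoderm 12 fell and 4 rose. Gata6, which specifies primitive endoderm, was among those that rose, from -2.03, -1.83 and -0.84 on the wild-type arrays to 0.88, 1.87 and 0.86 on the Nat1-null arrays, and Nat1-null replicate 2 and wild-type replicate 3 were the highest of their groups (2.77 ± 0.35, adjusted p = 5.87e-05). Dab2 and Lrp2, endocytic proteins of that lineage, fell, at -3.36 and -3.31. Of 24 neural genes 15 fell and 7 rose: Nes, the progenitor filament nestin, was at -4.61 and Gap43, a growth cone protein, at -5.08, while Fabp7 of radial glia was at least 87.02-fold lower. Of the 13 neural genes above background on all 12 arrays 7 rose and 4 fell (median 0.22). In the list of primitive streak and mesoderm 7 of 19 fell and 4 rose, near the shares of all genes (10 and 5 without Nat1-null replicate 2, and 1 and 4 of the 9 above background on all 12 arrays), and Meox1 of the somites was at least 19.8-fold lower. The fixed markers of these cell types differed between lineages. Of the 5 trophoblast markers tested 4 fell, with a summed level of 2.05 to 2.09 on the wild-type arrays and -0.07 to 1.00 on the Nat1-null arrays. Of 6 neural markers 5 fell (4.79 to 4.84 against 2.53 to 2.93). Of 7 primitive endoderm markers 2 rose and 3 fell (0.42 to 0.84 against 1.21 to 2.15), and of 4 mesoderm markers 2 rose and 1 fell (2.94 to 2.98 against 3.25 to 3.42). On the Nat1-null arrays Gata6 made up most of the endoderm sum and Kdr most of the mesoderm sum. The part of differentiated cells in these differences was not tested.

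The transcripts of the 2-cell embryo were among the most reduced. These genes are switched on in a small share of stem cells at any time. Of 16 tested 12 fell by 2-fold and 3 rose (median -5.12). Zscan4c read 4.10, 3.99 and 4.08 on the wild-type arrays and -1.90, -1.94 and -1.89 on the Nat1-null arrays, a difference of -5.97 (adjusted p = 5.62e-11), and Zscan4f fell by 5.63. Pramel6 and Pramel7 were at least 120-fold and 42.4-fold lower. The Zscan4 copies are nearly identical, so a probe for one may read others. In 2i+LIF the genotype difference of Zscan4c was -3.76.

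Imprinted genes fell in 25 of 31 cases and rose in 3 (median -1.79, or -1.35 with bounds). H19, a maternally expressed long RNA, lay at 3.65, 3.72 and 3.90 in wild-type cells and -3.87, -3.82 and -4.49 in Nat1-null cells, with only 2 of the Nat1-null arrays above background, and fell by 7.82. Snrpn fell by 6.12, Peg3 was at -6.55 and Cdkn1c, a brake on the cell cycle, at -4.34, and Dlk1 was at least 85.9-fold lower. The genes include both maternally and paternally expressed ones. For Snrpn the genotype difference in 2i+LIF was -4.92.

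Of 18 genes of the DNA methylation machinery 12 rose and 5 fell. Tet2 and Tet1, which oxidise methylcytosine, rose by 2.29 and 1.45, and Dnmt3a fell by 1.48. The Tet2 levels were 2.18, 2.20 and 2.20 on the wild-type arrays and 4.67, 4.07 and 4.70 on the Nat1-null arrays, with replicate 2 the lowest of the Nat1-null arrays and still above every wild-type array. Of 30 Polycomb genes 17 rose and 8 fell (13 and 9 without scaling), from Cbx6 at 2.00 to Yaf2 at -2.64.

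Glycolysis and the hypoxia response rose. Of 28 genes of glycolysis and lactate handling 21 rose and 1 fell, 15 rises reaching 2-fold (median 1.06). Pfkp, the platelet form of the committing kinase, lay at 1.66, 1.67 and 1.64 in wild-type cells and 4.04, 4.13 and 3.77 in Nat1-null cells, a rise of 2.33 ± 0.09, and Hk2, hexokinase, rose by 2.00. Aldoc, an aldolase, and the lactate exporter Slc16a3 rose by 2.88 and 2.44. Of 22 hypoxia-response genes 18 rose and 2 fell (median 1.44). Ndufa4l2, a mitochondrial target of HIF, lay at -2.21, -2.17 and -1.69 on the wild-type arrays and 3.77, 4.22 and 3.51 on the Nat1-null arrays. The difference was 5.86 ± 0.21 (adjusted p = 1.02e-08), and wild-type replicate 3 and Nat1-null replicate 2 were the highest arrays of their groups. The same 2 arrays were the highest of their groups for Bnip3, a mitophagy receptor (3.28, 3.45 and 3.83 in wild-type cells and 5.99, 6.54 and 5.77 in Nat1-null cells), and for Egln3, the oxygen-sensing hydroxylase (-1.76, -1.48 and -1.14 on the wild-type arrays and 1.85, 2.04 and 1.58 on the Nat1-null arrays). Differences in oxygen or density between cultures were not recorded in the labels, and their part was not tested.

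Oxidative phosphorylation moved little. Of 66 genes 30 rose and 6 fell, none by 2-fold, with a median of 0.15, and without scaling between arrays 18 rose and 16 fell (median -0.0031). Sdhb, of succinate dehydrogenase, had a rise of 0.99. Of 33 genes of cholesterol and fatty acid synthesis 16 rose and 6 fell (10 and 9 without scaling).

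Genes of the unfolded protein response rose: 18 of 29 rose and 2 fell, 5 rises reaching 2-fold (median 0.33). Without scaling 14 rose and 6 fell (median 0.17), and with quantile normalization 17 rose and 7 fell. Derl3, which passes misfolded proteins out of the endoplasmic reticulum, lay at 0.61, 0.69 and 0.63 in wild-type cells and 3.11, 3.15 and 3.17 in Nat1-null cells, a rise of 2.50 ± 0.07 (adjusted p = 2.05e-09). Sdf2l1 rose by 1.58, the disulfide isomerase Pdia4 by 1.42, the chaperone Hyou1 by 1.35, the oxidase Ero1b by 1.32 and Hspa5, the main chaperone BiP, named after its value was seen, by 0.68. The endoplasmic reticulum stress element, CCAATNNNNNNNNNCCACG, lay within 250 bases upstream of 10 of the 24 members with a listed promoter, on either strand, and in 0.113% of all promoters; 7 of these 10 genes rose and 3 were not called. It is in capitals in the windows of Derl3 (chr10:75893148-75893397, plus strand), Ero1b (chr13:12565633-12565882, plus strand) and Hspa5 (chr2:34771840-34772089, plus strand), as its reverse complement in Derl3 and Ero1b.
Derl3: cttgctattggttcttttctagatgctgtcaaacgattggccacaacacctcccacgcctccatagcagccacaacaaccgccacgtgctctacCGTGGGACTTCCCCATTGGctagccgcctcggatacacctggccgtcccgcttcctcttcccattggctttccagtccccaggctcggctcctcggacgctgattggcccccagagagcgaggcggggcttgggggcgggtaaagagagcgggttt
Ero1b: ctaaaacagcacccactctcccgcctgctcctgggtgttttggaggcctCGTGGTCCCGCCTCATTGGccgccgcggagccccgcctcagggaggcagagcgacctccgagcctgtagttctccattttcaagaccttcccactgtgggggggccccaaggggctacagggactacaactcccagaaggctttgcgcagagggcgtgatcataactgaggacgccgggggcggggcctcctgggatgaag
Hspa5: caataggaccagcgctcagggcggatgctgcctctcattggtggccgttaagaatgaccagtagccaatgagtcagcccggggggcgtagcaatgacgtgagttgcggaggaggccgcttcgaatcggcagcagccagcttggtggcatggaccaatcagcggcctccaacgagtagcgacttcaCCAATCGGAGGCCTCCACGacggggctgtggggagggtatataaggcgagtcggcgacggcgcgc
The element begins at -156, -201 and -65. Of all 20 tested genes with it, 13 rose (65.0%), against 34.97% of tested genes with a listed promoter. These 20 include the 10 list members above, so the share is not separate from the list. The list was chosen around this stress response, so a higher share of the element among its members was fixed by that choice. At 2-fold 2 of the 20 rose and 3 fell, against 10.3% and 18.2%.

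Other stress programmes differed. Of 29 genes of ATF4 and the integrated stress response 14 rose and 7 fell (12 and 8 without scaling). Ppp1r15a and Ppp1r15b, the subunits that undo the phosphorylation of eIF2 alpha, rose by 1.43 and 1.39, while Atf3 and Phgdh, a serine synthesis enzyme, fell, at -2.28 and -1.98. Heat shock genes fell in 10 of 19 cases and rose in 4: Cryab, a small heat shock protein, lay at 3.43, 3.43 and 3.54 on the wild-type arrays and -0.16, 0.31 and -0.28 on the Nat1-null arrays, a difference of -3.51, the inducible Hspa1a fell by 2.98 and its co-chaperone Bag3 fell by 2.67. Hspa8, the constitutive form, did not pass on its brightest probe (-0.15 ± 0.08, adjusted p = 0.108). Its other probes were both called lower, down to -0.61, and the gene was lower with the mean of its probes (-0.44, adjusted p = 0.0018), without scaling (-0.30), with quantile normalization (-0.16) and without Nat1-null replicate 3 (-0.21). Among 22 antioxidant genes 4 rose and 8 fell, among them Hmox1 (-1.87). In the lysosome list 13 of 32 rose and 11 fell (9 and 13 without scaling), near the shares of all genes. Its transcription factors Mitf and Tfeb rose by 1.91 and 1.81.

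Cell cycle brakes moved in both directions. Cdkn2b fell by 3.11 and the cyclin Ccnd2 fell by 3.16. Cdkn1b (p27) read 1.75, 1.78 and 1.63 in wild-type cells and 3.93, 3.86 and 3.77 in Nat1-null cells, a rise of 2.13 ± 0.06 (adjusted p = 3.13e-09), and E2f2, a factor of S phase entry, rose by 2.40. Of 32 cell cycle genes 16 rose and 8 fell. Of 25 p53 targets 6 rose and 14 fell, with the death receptor Fas at -3.33, and of 25 BCL2 family genes and caspases 14 rose and 6 fell, with Bmf, a trigger of cell death, at 1.65 and Casp8 at -1.91.

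Interferon and antigen presentation genes fell in 17 of 26 cases and rose in 7 (median -1.09). B2m, the light chain of MHC class I, lay at 3.51, 3.46 and 3.51 on the wild-type arrays and -0.35, 0.99 and -0.07 on the Nat1-null arrays, with replicate 2 nearest wild type, a difference of -3.30 (adjusted p = 5.94e-06). Psmb8, of the immunoproteasome, fell by 4.06 and the chemokine Cxcl10 was at least 119-fold lower. Csf1, the macrophage growth factor, was at least 98.5-fold lower. The 4 blood and endothelial markers tested all fell, from a summed level of -0.16 to -0.07 on the wild-type arrays to -1.40 to -0.81 on the Nat1-null arrays, and their part in these falls was not tested.

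**Figure D3:**
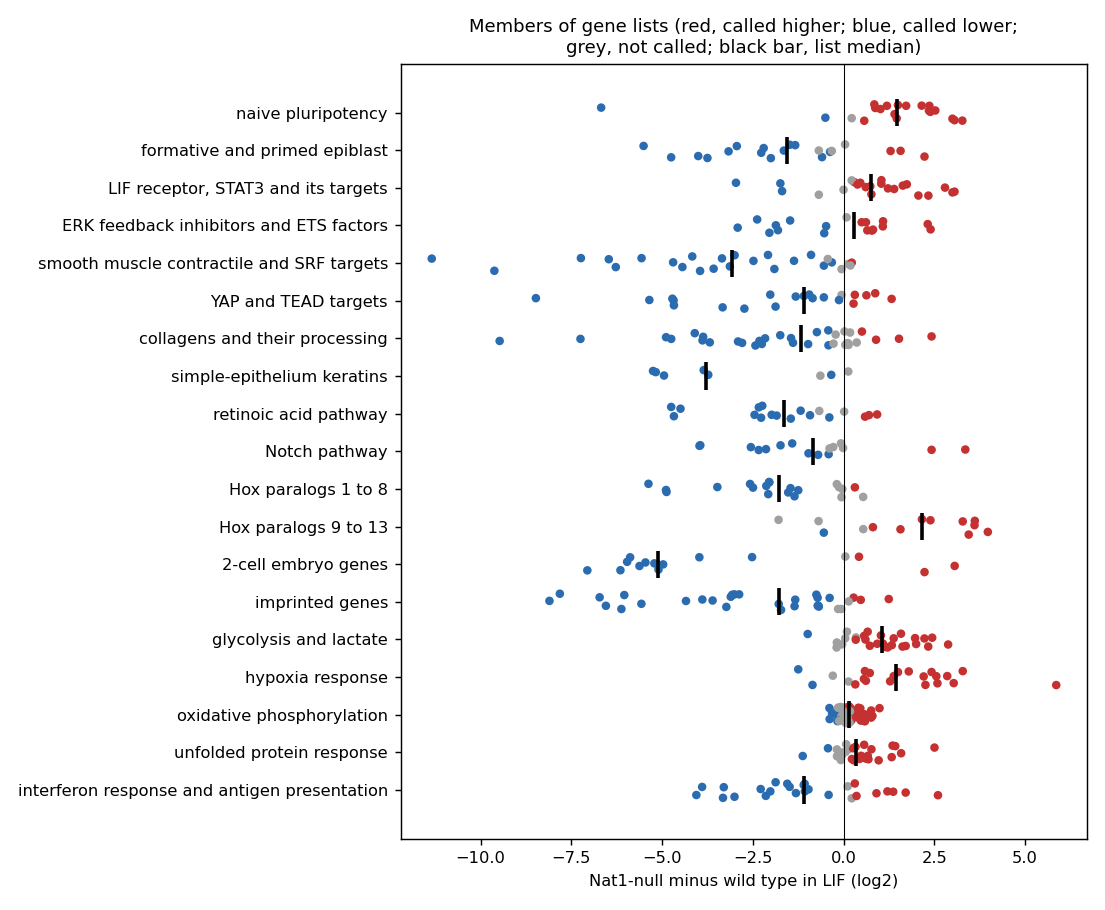
Difference between Nat1-null and wild-type cells in LIF (horizontal axis, log2) for each tested member of 19 gene lists (rows); red points are called higher, blue lower, grey not called, and the black bar is the list median. Naive pluripotency (median 1.48), glycolysis (1.06) and hypoxia (1.44) lie to the right of 0, and the contractile (-3.07), keratin (-3.79) and 2-cell (-5.12) lists to the left.

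Several list medians rest in part on members near background. Over the members above background on all 12 arrays the median was -0.70 for the YAP and TEAD list. For collagens it was -0.42, against -1.19 for all of them. It was -2.19 for keratins, -0.90 for trophoblast, -2.58 for 2-cell genes, -0.74 for imprinted genes and -0.69 for interferon genes. Normexp correction here added a constant to the signals before the logarithm, which makes differences of dim genes smaller. With it the median was -1.02 for retinoic acid genes, -3.21 for 2-cell genes and 0.71 for the posterior Hox genes. None of these medians changed sign.

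The largest rises included genes outside these programmes. Among genes above background on all 6 arrays, Nkx6-3, a homeobox factor, led at -4.20, -4.08 and -4.69 in wild-type cells and 2.23, 1.73 and 2.12 in Nat1-null cells, a rise of 6.35 ± 0.17 (adjusted p = 1.78e-09). Islr2, a neuronal membrane protein, rose by 6.27, Padi2, which turns arginine in proteins into citrulline, by 5.25 and Igsf21, a synaptic adhesion protein, by 5.13. The NMDA receptor subunits Grin1 and Grin2c rose by 4.82 and 4.91. Prdm16 and the homeobox gene Msx3 were above background on no wild-type array and at least 13.97-fold and 11.9-fold higher. In each of these 8 genes the 3 Nat1-null arrays were above the 3 wild-type arrays, which follows from their choice by the size of the rise. Over all genes the arrays of the genotypes did not overlap in 72.8%.

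Fewer genotype differences were called in 2i+LIF. There 21.0% of genes were higher in Nat1-null cells and 22.6% lower, with 10.9% past 2-fold in either direction, and the difference between the genotype effects of the 2 media passed for 12163 genes (49.7%). For 1706 genes (6.98%) it passed and the genotype differences were called with opposite signs. Of those interaction calls 6397 were more positive in LIF and 5766 more negative; without scaling the split was 2810 and 10268. Of the naive genes 19 of 20 passed this test, and the list's median genotype difference was 0.15 in 2i+LIF against 1.48 in LIF. For the contractile and SRF genes the medians were 0.22 and -3.07, for keratins 0.81 and -3.79 and for the trophoblast list 0.96 and -1.37. The trophoblast list shares Krt7, Krt8 and Krt18 with the keratins. The lists that moved the same way in both media included the unfolded protein response (medians 0.33 in LIF and 0.35 in 2i+LIF). The wild-type arrays of the 2 media lay on different slides, and the part of the slides in the differences between media was not tested.

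Of the 1706 genes that changed in opposite directions, 825 were lower in LIF and higher in 2i+LIF and 881 the reverse. The named genes among them were mostly of the first kind. Krt18 differed by -5.25 in LIF and by 1.88 in 2i+LIF, and the difference of differences was -7.14 ± 0.15 (limma adjusted p = 6.80e-09). The homeobox gene Rhox6 of trophoblast and germ line differed by -5.18 and 2.42, Fgf5 by -2.27 and 4.02, Dnmt3b by -2.20 and 1.00, Egr1 by -3.15 and 1.66 and Lats2 by -4.69 and 1.93. In the other direction Nanog differed by 1.40 and -0.42 and the cell death gene Bmf by 1.65 and -1.38. The 2 genotype differences share no array, but in each medium the Nat1-null arrays were on slide 3 and the wild-type arrays on another slide.

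**Figure D4:**
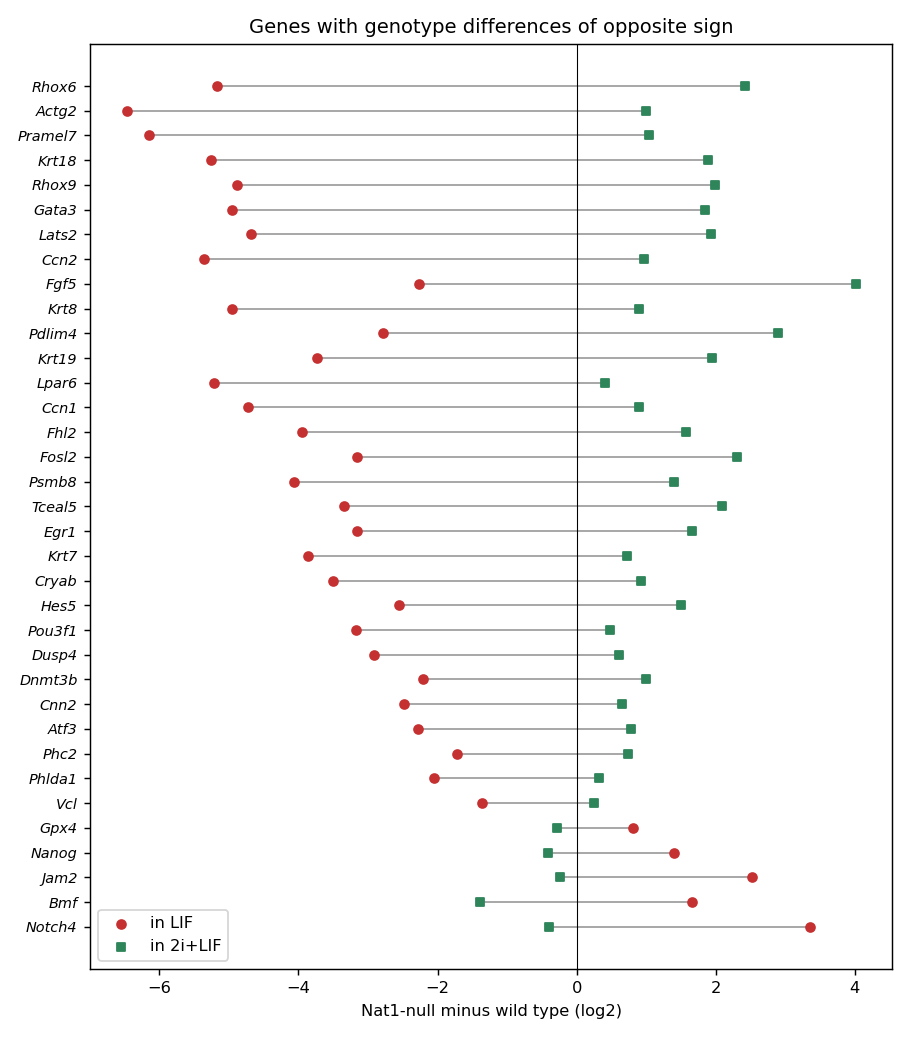
Genotype difference (Nat1-null minus wild type, log2, horizontal axis) in LIF (red circles) and in 2i+LIF (green squares) for the 35 named genes in which both were called with opposite signs and the difference between media passed. The genes were chosen partly by size and list, so their split (30 and 5) is not that of all such genes (825 and 881). In 30 genes the red circle is on the left of 0, and in 5, Nanog among them, on the right.

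Nat1-null cells in LIF can also be set against wild-type cells in 2i+LIF, which share no array with them; the Nat1-null arrays are those of the comparison in LIF. In that comparison 21.9% of genes were higher and 30.0% lower (5352 and 7334 genes; without scaling 12780 and 2495, so its direction for small differences depends on scaling). Klf4 and Klf5 were above the wild-type 2i+LIF level, by 1.05 and 1.47. Nanog was below it (-0.59) and Tfcp2l1 too (-0.84), while for Esrrb the difference was 0.06 (limma adjusted p = 0.64). The ERK-dependent Spry4 was higher by 4.27, Dusp6 by 3.09, Egr1 by 2.63 and Etv4 by 2.31. Of the 18 ERK feedback and ETS genes 11 were higher and 4 lower than in wild-type 2i+LIF.

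By position, 2 autosomes stood apart, chosen after their values were seen. The median difference in LIF was -0.36 over 819 genes of chromosome 8 and -0.28 over 1292 genes of chromosome 11, and it lay between -0.08 and 0.15 on each of the 17 other autosomes. Chromosome 8 was also lower in Nat1-null cells in 2i+LIF, at -0.34, whereas chromosome 11 was at 0.10 there. Among genes above background on all 12 arrays, chromosome 8 deviated from the other autosomes by 0.19 to 0.22 on the wild-type LIF arrays, 0.18 to 0.19 on the wild-type 2i+LIF arrays and -0.18 to -0.24 on all 6 Nat1-null arrays. Chromosome 11 deviated by 0.25 to 0.27 on the wild-type LIF arrays and was below 0 on the other 9 arrays. On chromosome X the median was -0.70 (-0.345 over the 469 genes above background on all 6 LIF arrays), and 236 of 611 genes (38.6%) fell by 2-fold. Of 13 Y-linked genes tested 11 fell by 2-fold, and Eif2s3y read 3.73, 3.67 and 3.74 on the wild-type arrays and 2.29, 2.78 and 2.40 on the Nat1-null arrays. DNA copy number was not measured.

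**Figure D5:**
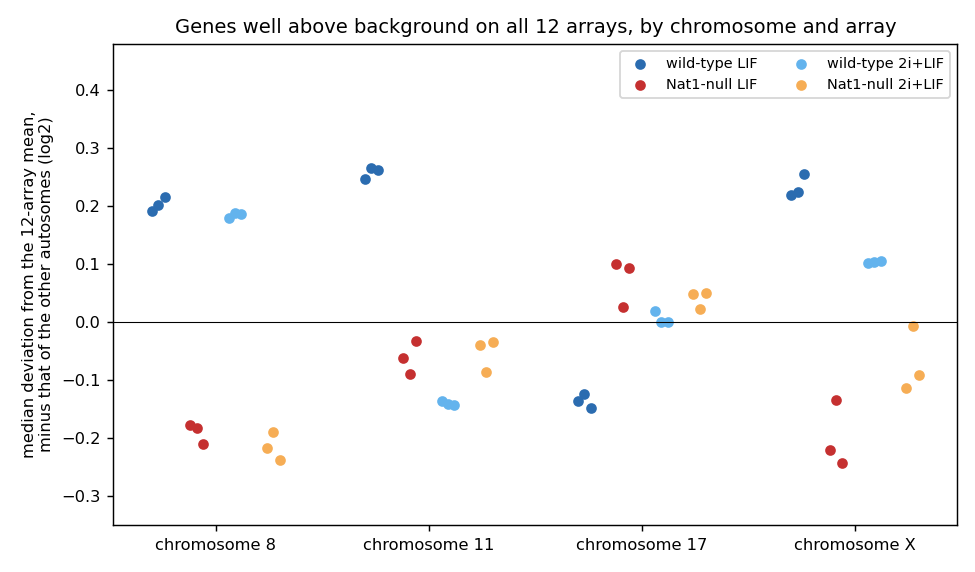
Median deviation from the mean of the 12 arrays over the genes of a chromosome, minus that of the other autosomes (vertical axis, log2), a point per array, for genes above background on all 12 arrays. On chromosome 8 the 6 wild-type arrays lie between 0.18 and 0.22 and the 6 Nat1-null arrays below 0; on chromosome 11 only the wild-type LIF arrays lie above 0.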

How the data were processed

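Total RNA of 12 mouse embryonic stem cell samples, in 4 groups of 3 by genotype and medium, was measured on single-colour arrays. Intensity values were taken from the deposited scanner output (its processed signals, and medians of spot and background), and per the file headers the processed signal was background-subtracted within each array and not scaled between arrays. The values in the series table deposited by the authors are log2 processed signals shifted to a 75th percentile of 0, and they correlated at 1 with values recomputed from the scanner files on each array. Levels here are log2(processed signal) minus the array's 75th percentile. Control spots and outlier spots were left out, spots of a probe were averaged, and 33286 probes were kept that passed the scanner's background test on every array of 1 group or more. A gene is its probe with the highest mean, named through RefSeq transcript accessions (GRCm38.p6), which gave 15422 of 24457 genes a symbol. Among named genes, probes of Col18a1, Eif2s3x, Hspa8 and Srf differed in sign or call. All 12 arrays entered a fit of 4 group means (limma 3.58.1, R 4.3.3), with Benjamini-Hochberg adjustment over all genes. The fit was tested on simulated data. The number of arrays, 3 in a group, limits the precision.

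A lower bound of a fold sets the bright group's mean against the dim group's mean of, per array, the higher of the probe's own level and the lowest level well above background. The 52 gene lists, the cell type markers and the comparison were chosen with earlier results of these data known. Named genes are a fixed set of pluripotency, LIF and ERK genes, the 12 largest rises and falls above background, the 8 largest bounded rises and falls, at most 5 called genes a list, plus the brightest uncalled one, and up to 12 genes of opposite sign in the 2 media. A few genes that this rule selects are not reported here. Lists carry no test of their own. Promoter windows are from RefSeq, and the scanner files' own annotation is of an older build. The alternatives were other scaling, background correction, probe filters, probe summaries, array weights, the LIF arrays alone, the deposited table, a block for the replicate number and leaving out each array. Of 18 pairs of same-numbered arrays only Nat1-null replicates 2 in LIF and 2i+LIF had a residual correlation over 0.1 (0.301). Whether same-numbered samples, these in particular, share a source was not tested, and the fit treats them as separate. A block for slide could not be fitted, as each LIF group lies on 1 slide of its own.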

Additional observations from a re-analysis of the deposited data

Results flagged for a closer look

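In 35 named genes the differences between genotypes in the 2 media were called with opposite signs and the difference between them passed limma's test, which over all genes was so for 6.98%, 825 of them lower in LIF and 881 higher. The values that follow are the genotype difference in LIF minus that in 2i+LIF (log2). In 30 of the genes Nat1-null cells were lower than wild type in LIF and higher in 2i+LIF. The widest gaps were those of Rhox6 (-7.59), Actg2 (-7.47), Pramel7 (-7.19), Krt18 (-7.14), Rhox9 (-6.86), Gata3 (-6.81), Lats2 (-6.61), Ccn2 (-6.32), Fgf5 (-6.29), Krt8 (-5.84) and Pdlim4 (-5.68). Intermediate gaps were found for Krt19 (-5.67), Lpar6 (-5.62), Ccn1 (-5.61), Fhl2 (-5.53), Fosl2 (-5.45), Psmb8 (-5.45), Tceal5 (-5.45), Egr1 (-4.81), Krt7 (-4.58), Cryab (-4.44) and Hes5 (-4.06). The smallest were those of Pou3f1 (-3.65), Dusp4 (-3.52), Dnmt3b (-3.21), Cnn2 (-3.13), Atf3 (-3.07), Phc2 (-2.45), Phlda1 (-2.37) and Vcl (-1.62). In the remaining 5 genes Nat1-null cells were higher in LIF and lower in 2i+LIF, which gave positive values for Gpx4 (1.11), Nanog (1.82), Jam2 (2.77), Bmf (3.04) and Notch4 (3.76). In both media the Nat1-null arrays lay on slide 3 and the wild-type arrays on another slide, so the part of the slides in these differences was not tested. Among these genes Actg2 and Pramel7 were above background on no Nat1-null LIF array, so that their values in LIF are not measured levels. Counting all groups of both media, 4 of the 35 genes, Actg2 and Pramel7 included, had a group with no array above background. Of the 35 genes 26 were above background on all 12 arrays.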

How the results depend on the processing

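Every alternative that gave other genes at 2-fold kept the sign of each shared call. The count of 6359 genes at 2-fold became 4215 (1827 higher, 2388 lower) with normexp on median spot and background signals. This alternative was chosen after seeing the data because mean spot signals were not used here. It added a constant to the signals before the logarithm, which makes differences of dim genes smaller. The count was 3731 (2083 higher, 1648 lower) with probes well above background on all 12 arrays, a filter that removes genes that fell to background. These alternatives kept 64.8% and 58.6% of the 6359 calls. Of the calls in these alternatives 97.8% and 99.9% were also calls at 2-fold without them. The filter only takes out genes, so the second of these shares was nearly fixed in advance. Leaving out each array gave 14938 to 16562 genes called, 6176 to 6613 at 2-fold, 10909 to 12948 for the difference between media and 11077 to 13362 for Nat1-null LIF against wild-type 2i+LIF. With the replicate block the counts were 16225, 6352, 11988 and 12432, and among named genes it changed the call of Zfy1 (-2.59, adjusted p = 0.0529) alone. Of 214 named genes called, 210 were called in each alternative that tested them (165 of 223 named genes were above background on all 12 arrays, and the other alternatives tested all 223); the exceptions are Dusp6, Map3k3, Srf and Zfy1. Dusp6 lost its call without scaling (0.34, adjusted p = 0.0598) and without Nat1-null replicate 1 (0.45) or 3 (0.42), and Srf changed sign with normexp (-0.043). Zfy1 also lost its call with array weights (-1.48), without any 1 of the wild-type LIF arrays and without Nat1-null replicate 2 (-2.05) or 3 (-2.10). Otx2 changed sign without scaling (-0.11), with quantile normalization (-0.049), with normexp (-0.15) and without wild-type replicate 1 (-0.023) or Nat1-null replicate 1 (-0.0013); Eif4g1 did with array weights (0.047) and without wild-type replicate 2 (0.018) or Nat1-null replicate 2 (0.099). Over the arrays left out, Otx2 ranged from -0.023 to 0.098. Neither gene was called. Of 9 named genes not called, 6 passed in some alternative: Ccnd1, Ccne1, Col18a1, Hspa8, Irf3 and Lefty2, the latter without scaling (-0.48), with array weights (-0.53) and without Nat1-null replicate 2 (-0.58). List medians changed sign for FGF ligands (0.40), neural genes (0.22), primitive streak genes (0.24) and Wnt genes (0.082) with probes bright on all 12 arrays, for Hedgehog (-0.10) and germline genes (0.0054) when the probes of a gene were averaged, for lysosome (-0.048), oxidative phosphorylation (-0.0031) and immediate early genes (-0.11) without scaling, and for primitive streak genes with normexp (0.092) and without Nat1-null replicate 1 (0.037). Medians near 0 also did for Wnt genes with quantile normalization (0.015) and without wild-type replicate 1 (0.0038), for aminoacyl-tRNA synthetases with normexp (0.018), array weights (0.0075) and without Nat1-null replicate 2 (0.0065), and for immediate early genes without wild-type replicate 1 (-0.025) or Nat1-null replicate 1 (-0.037) or 3 (-0.084); the cause was not tested. Below background only bounds can be given.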

Other observations

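Some neighbouring genes fell or rose together; no count expected by chance was computed. The clusters given here were picked with their values in view. The 9 adjacent serpin genes from Serpinb1a to Serpinb6d on chromosome 13, inhibitors of proteases, all fell by at least 2-fold with a median of -3.93. So did the 8 genes on chromosome 3 from Pdha2 to Gbp2, which include 5 interferon-induced guanylate binding proteins (median -4.40), the 7 from Csf1 to Gstm1 on the same chromosome, 6 of them glutathione transferases (median -4.23), the 8 genes from Xlr4a to Xlr5c on chromosome X, 7 of them Xlr genes (median -2.68) and the 6 Hoxb genes with Skap1 on chromosome 11 (median -2.50). Fewer clusters rose: the 7 genes on chromosome 7 from Pgghg to B4galnt4, which include 5 Ifitm genes of interferon-induced membrane proteins, had a median of 2.06, and the 6 kallikrein genes from Klk1b22 to Klk1 a median of 1.75. Members of a family share sequence, so a probe for a member may read others.

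Several further lists fell, and part of their members were already counted above. Among the fibroblast genes these include Col1a1, Col1a2, Dcn, Acta2 and Tagln. Of 25 genes of the epithelial to mesenchymal transition 18 fell and 3 rose, and of 17 fibroblast and feeder cell genes 14 fell and none rose. Among 22 serpins, proteases and their inhibitors 16 fell and 3 rose; Serpinf1, which blocks vessel growth, fell by 5.99. Of 19 neuropeptide and secretory granule genes 14 fell and 5 rose, and Vgf, a neuropeptide precursor, fell by 6.73. Of 25 protocadherins and neuronal adhesion genes 14 fell and 5 rose (5 and 4 of the 11 above background on all 12 arrays). All 6 listed Y-linked genes fell, and they are among the 13 tested on that chromosome and given above. Usp9y was above background on 2 Nat1-null arrays, Zfy1 and Uty on 1, and 1 more of the 6 on none. The falls of these genes therefore rest in part on levels not measured. Germline genes rose in 7 and fell in 9 of 25 cases, near the shares of all genes. The testis gene Tex19.1 was at -2.55 and Kit, the receptor of stem cell factor, at 2.15. The aminoacyl-tRNA synthetases showed little change, 5 of 20 rising and 7 falling with none past 2-fold.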
